A study of Homo sapiens with 5 samples.

Results

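Ribosome footprints of 51 transcripts lay apart between QTGAL KO and QTMAN KO cells in every library of these 2 genotypes. They were chosen by their values: the lower library of one genotype had to reach at least 1.5 times the higher library of the other, and at least 5 CPM (counts per 1000000 counted in the table). Each table lists 182398 transcripts in one order. The selection left out 4 identifiers and rows 152162 to 157079 of the tables, of which row 25492 alone met the thresholds. Of the others, 25105 reached 5 CPM in both libraries of at least 1 of the 2 genotypes. Rows of one direction no more than 20 rows apart were read as 1 group, since neighbouring rows can be isoforms that share footprints. The 51 transcripts form 26 groups: 37 transcripts in 16 groups were higher in QTGAL KO, and 14 in 10 groups were higher in QTMAN KO. Each group is described by its representative, the row with the highest count over all libraries.

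All cells were HEK293T, a line derived from human embryonic kidney, with 1 gene knocked out. There was 1 library of QTRT1 KO, with 2 of QTGAL KO and 2 of QTMAN KO. The labels name no other allele and no treatment, and they do not say whether 2 libraries of a genotype came from separate clones or cultures, so the spread between them may be technical. Unmodified cells and RNA levels were not analysed here, so whether mRNA abundance or translation differs cannot be told apart from footprints alone.

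Queuosine, a guanosine derivative, is the wobble base of the anticodon in tRNAs for aspartate, asparagine, histidine and tyrosine. It is put in place by an enzyme with QTRT1 as catalytic subunit. On tyrosine tRNA the glycosyltransferase QTGAL attaches galactose to queuosine, and on aspartate tRNA QTMAN attaches mannose. QTRT1 KO targets the step on which both sugars depend, and each glycosyltransferase knockout targets the enzyme for one sugar. A footprint is the stretch of mRNA that a ribosome shields from nuclease, and the count of footprints on a coding sequence reflects how much mRNA is present and how densely ribosomes occupy it.

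Counts summed over the transcripts of a table came to 13918194 in the QTRT1 KO library, 12002044 to 23470931 in the QTGAL KO libraries and 18861713 to 25291912 in the QTMAN KO libraries, so that 5 CPM stand for 60.0 to 126 counts. A footprint shared by isoforms may be counted in each of them, so these sums are not numbers of footprints. The tables give each transcript an identifier and 93916 of them a length, read here as codons, and pair no identifier with a gene. No gene can therefore be named and no sequence shown, the knockout of the targeted genes and the markers of the cell line were not checked, and transcripts are given by row and length, with 2 identifiers per direction.

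Separation of this size was rare among transcripts at that level. The share of the 25105 transcripts that met the selection was 0.147% with QTGAL KO higher, 0.0558% with QTMAN KO higher and 0.203% in all. These shares are what the selection itself leaves and carry no test. The edgeR quasi-likelihood test over the whole table called 0% of 60966 transcripts between the 2 genotypes at a Benjamini-Hochberg adjusted p under 0.05. By the same test 3953 (6.48%) were under an unadjusted p of 0.05. DESeq2 called 12 of the 4231 transcripts to which it gave an adjusted p. The 2 libraries of one genotype differed by 1.5 times or more, in either direction, in 3.53% of the 25105 transcripts for QTGAL KO and in 2.95% for QTMAN KO. The median fold between libraries of one genotype was 1.12 and 1.11. These values compare 2 single libraries, and the selection sets a stricter condition on 4, so the shares are not on the same measure. A large mean difference alone did not make a transcript a member: of 56 transcripts at this level with an absolute log2 difference of at least 1, 9 were members, 5 others had overlapping genotypes and 42 had a gap under 1.5 times.

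**Figure D1:**
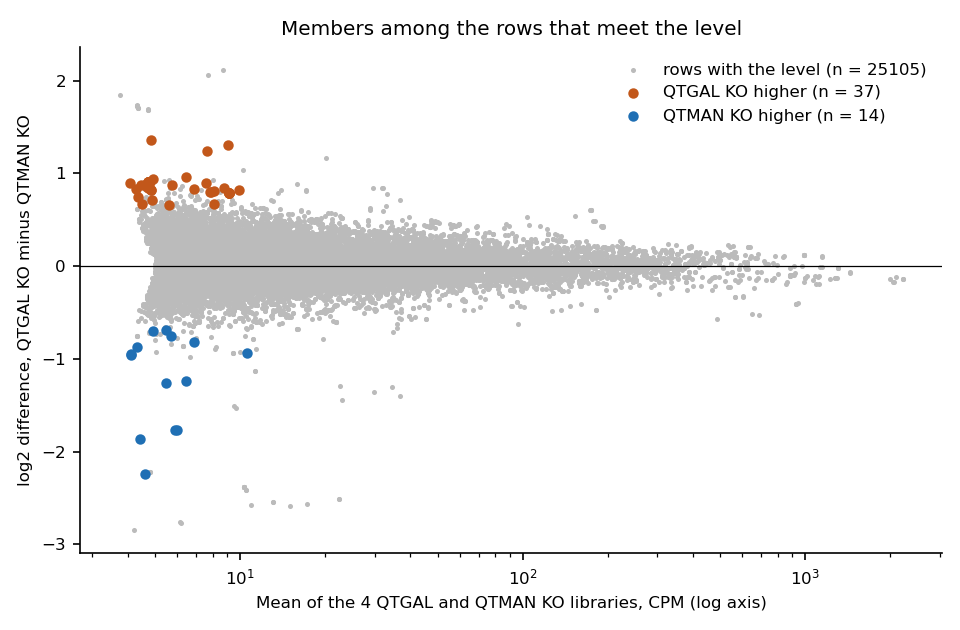
Mean level of the 4 QTGAL KO and QTMAN KO libraries in CPM (log axis) against the log2 difference, QTGAL KO minus QTMAN KO, for 25105 transcripts (grey) and the 51 members (QTGAL KO higher in orange, QTMAN KO higher in blue). The members lie at the left end of the cloud, with representatives between 4.08 and 10.6 CPM, and some grey points differ as much while the gap between their libraries is under 1.5 times.

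The direction of the split depended on scaling. With the file sum as the total, 61.5% of the groups were higher in QTGAL KO. With library sizes adjusted by edgeR's TMM factors (0.967 to 1.02 over the 5 libraries), 10 of the 16 groups higher in QTGAL KO kept a member row, all 10 groups higher in QTMAN KO did, and 45.5% of the groups found were higher in QTGAL KO. The median log2 difference over the 25105 transcripts was 0.031 with the file sum and 0.010 with TMM.

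Among transcripts higher in QTGAL KO, uc057mdc.1 (row 11050, 258 codons) had the widest gap of the representatives. It stood at 11.3 and 14.4 CPM in the QTGAL KO libraries and at 4.29 and 6.17 CPM in the QTMAN KO libraries, replicates 1 and 2 in that order. The means were 12.9 ± 2.21 CPM in QTGAL KO and 5.23 ± 1.32 CPM in QTMAN KO (SD, n = 2 each), a ratio of 2.46. The lower QTGAL KO library was 1.83 times the higher QTMAN KO library. Row 11049, of 199 codons, is the other member of its group, with a gap of 1.88 times and 9.71 and 11.7 CPM in QTGAL KO against 3.92 and 5.18 CPM in QTMAN KO. The spread between libraries was wide in both genotypes, and the absence of overlap was required by the selection.

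The shortest coding sequence of the set was uc065cck.1 (row 89969, 91 codons). Its QTGAL KO libraries held 6.26 and 7.50 CPM, against 2.01 and 3.52 CPM in the QTMAN KO libraries. The low value in QTMAN KO replicate 1 rests on 38 counts, with an exact 95% Poisson interval of 1.43 to 2.77 CPM that covers counting error only. No molecular identifiers are mentioned in the labels, so repeated reads of 1 fragment may be among the counts. The 2 genotypes averaged 6.88 ± 0.874 and 2.77 ± 1.06 CPM in QTGAL KO and QTMAN KO (SD, n = 2 each), a ratio of 2.49, and the gap was 1.78 times. The gap was set by QTMAN KO replicate 2: its log2 was 0.83 with all libraries and 1.64 without that one. These 2 representatives were the only ones higher in QTGAL KO whose means differed by 2 times or more.

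Of the groups higher in QTGAL KO, 4 held 5 to 7 neighbouring rows. Rows 54497 to 54504 hold 7 members of 664 to 694 codons. The representative, row 54504, stood at 5.62 and 6.92 CPM in QTGAL KO and at 3.39 and 3.24 CPM in QTMAN KO. The other 6 rows had identical counts in all 5 libraries and thus count as 1 measurement. Rows 61380 to 61384 are 5 members, each of 560 codons and with the same counts, at 10.9 and 12.2 CPM in QTGAL KO and 6.42 and 7.0 CPM in QTMAN KO. Here both genotypes were tight, and the gap was 1.56 times.

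Rows 131516 to 131523 hold 5 members of 423 to 519 codons, and the representative, row 131517, stood at 12.8 and 9.83 CPM in QTGAL KO against 6.15 and 6.33 CPM in QTMAN KO. In this group QTGAL KO replicate 1 was the higher of the 2. In 13 of the 16 groups replicate 2, the shallower library, was the higher. Rows 96102 to 96120 hold 5 members of 705 to 822 codons. Row 96102 stood for them, with 5.54 and 6.92 CPM in QTGAL KO against 3.39 and 3.60 CPM in QTMAN KO.

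Of the 12 remaining groups higher in QTGAL KO, including the 2 with an identifier above, 9 were single rows and 3 held 2 rows. Row 78546, of 209 codons, had tight libraries in both genotypes, at 5.20 and 5.42 CPM in QTGAL KO and 2.7 and 3.0 CPM in QTMAN KO, and a gap of 1.73 times. Row 51349, of 229 codons, was alike, at 5.54 and 5.42 CPM in QTGAL KO against 2.86 and 3.28 CPM in QTMAN KO. Row 100202, of 708 codons, stood at 7.33 and 7.50 CPM in QTGAL KO and at 3.61 and 4.51 CPM in QTMAN KO. In these 3 rows the libraries of QTGAL KO differed from each other by far less than the gap between genotypes.

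The gap was narrower in the rest. Row 70643, of 527 codons, stood at 5.03 and 8.08 CPM in QTGAL KO against 3.34 and 3.32 CPM in QTMAN KO. Its QTGAL KO replicate 1 lay just above the level required, and its QTGAL KO libraries differed by 1.61 times, more than its gap of 1.51 times. Row 89502, of 406 codons, stood at 10.9 and 14.4 CPM in QTGAL KO against 7.0 and 7.28 CPM in QTMAN KO. Row 181081, of 144 codons, stood at 7.03 and 10.2 CPM in QTGAL KO against 4.08 and 4.59 CPM in QTMAN KO. These 3 had the larger spread in QTGAL KO. Rows 79598, 81475, 128140 and 162489, of 352, 211, 714 and 922 codons, had ratios of means of 1.82, 1.58, 1.59 and 1.6. Over all 16 groups the gap ran from 1.5 to 1.83 times with a median of 1.55, and the ratio of means from 1.58 to 2.49 with a median of 1.82.

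**Figure D2:**
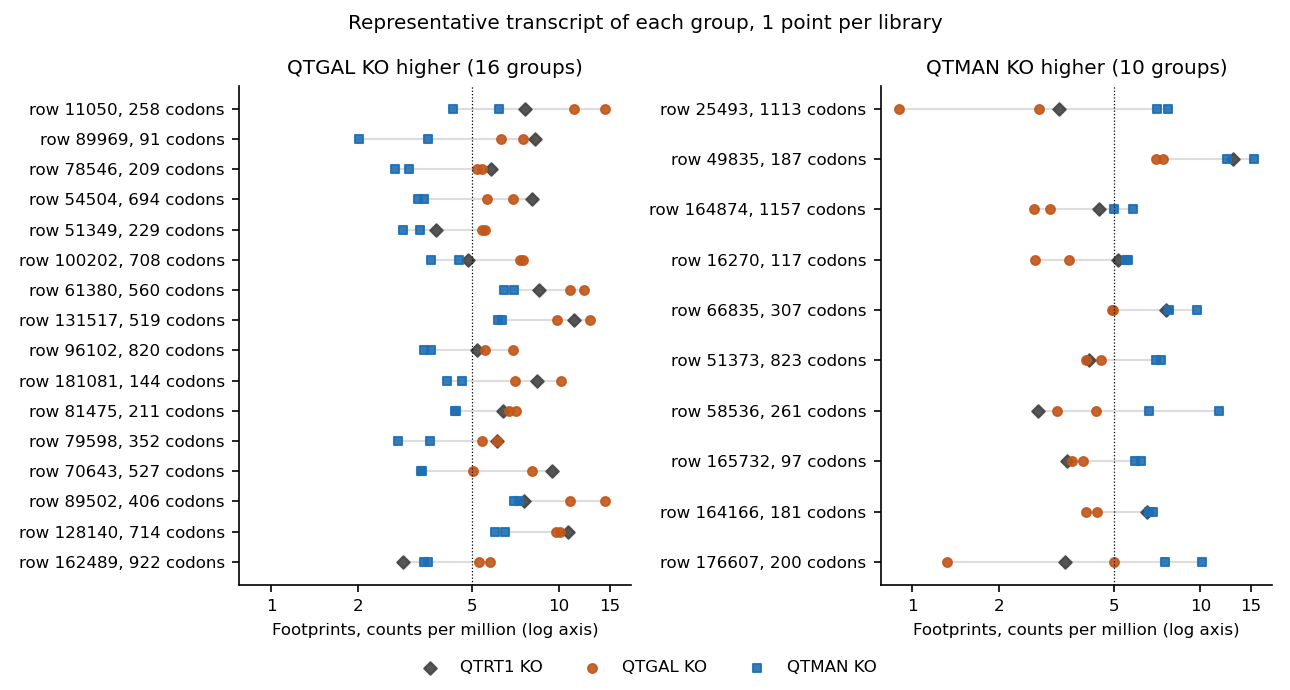
Footprint level in CPM (log axis) of the representative of each group, 1 point per library (QTRT1 KO diamonds, QTGAL KO circles, QTMAN KO squares), ordered by the gap between QTGAL KO and QTMAN KO with the widest on top. The dotted line marks 5 CPM, and the QTRT1 KO library, which the selection did not use, lies between the genotypes in 7 of the 16 and 5 of the 10 groups and elsewhere in the rest.

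Among transcripts higher in QTMAN KO, uc010frx.4 (row 25493, 1113 codons) had the widest gap of all members. It had 0.895 and 2.75 CPM in the QTGAL KO libraries, from 21 and 33 counts, and 7.74 and 7.08 CPM in the QTMAN KO libraries. The means were 1.82 ± 1.31 CPM in QTGAL KO and 7.41 ± 0.469 CPM in QTMAN KO (SD, n = 2 each), so the mean in QTMAN KO was 4.07 times that in QTGAL KO, with a gap of 2.57 times. The QTGAL KO libraries differed from each other by 3.07 times, more than this gap, replicate 2 being the higher. Without replicate 2 the log2 of the gap was 2.98, against 1.36 with it. The row lies beside row 25492, of 1500 codons, the one left out by name, whose levels were 1.15 and 3.42 CPM in QTGAL KO and 9.91 and 9.21 CPM in QTMAN KO, so the 2 rows may share footprints.

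The next widest gap among representatives was that of uc063efd.1 (row 49835, 187 codons), which also had the highest level of any representative. It stood at 7.03 and 7.42 CPM in QTGAL KO and at 15.4 and 12.4 CPM in QTMAN KO. The means were 7.22 ± 0.273 CPM in QTGAL KO and 13.9 ± 2.09 CPM in QTMAN KO (SD, n = 2 each), a gap of 1.67 times. Row 164874, of 1157 codons, followed among representatives. Row 164873, of 1163 codons and the other member of its group, had a gap of 1.72 times. Row 164874 stood at 2.64 and 3.0 CPM in QTGAL KO against 5.83 and 5.02 CPM in QTMAN KO. Rows 164873 and 164874 were, with uc010frx.4, the longest coding sequences among the members.

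Rows 176606 to 176608, of 128 to 200 codons, had a ratio of means, QTMAN KO the higher, of 2.80, but the QTGAL KO libraries lay farther apart than the gap between the genotypes. Row 176607 stood at 1.32 and 5.0 CPM in QTGAL KO and at 7.53 and 10.2 CPM in QTMAN KO. Rows 58536 and 58539, of 261 and 209 codons, had their wide spread in QTMAN KO instead, where the libraries also lay farther apart than the gap. Row 58536 stood at 4.35 and 3.17 CPM in QTGAL KO against 11.6 and 6.60 CPM in QTMAN KO. These 2 groups and uc010frx.4 were the ones higher in QTMAN KO whose means differed by 2 times or more.

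The remaining 5 groups were single rows of 97 to 823 codons. Row 51373, of 823 codons, stood at 4.0 and 4.50 CPM in QTGAL KO and at 7.0 and 7.31 CPM in QTMAN KO. Row 66835, of 307 codons, stood at 4.98 and 4.92 CPM in QTGAL KO against 9.76 and 7.79 CPM in QTMAN KO. Row 16270, of 117 codons, stood at 3.49 and 2.67 CPM in QTGAL KO against 5.62 and 5.54 CPM in QTMAN KO. Rows 164166 and 165732, of 181 and 97 codons, had ratios of means of 1.61 and 1.62 with QTMAN KO the higher. The gap over the 10 groups ran from 1.51 to 2.57 times with a median of 1.56.

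Most representatives lay close to the threshold, with a gap under 1.6 times in 10 of the 16 groups higher in QTGAL KO and 7 of the 10 higher in QTMAN KO. Some other rows of these groups had wider gaps, such as row 176606 with 1.73 times and row 58539 with 1.68 times. The narrowest gaps inside the threshold were those of row 162489, at 1.501 times with QTGAL KO higher, and row 176607, at 1.506 times with QTMAN KO higher. Just outside lay row 181080, of 120 codons, with QTGAL KO higher by a gap of 1.497 times, and row 151664, also of 120 codons, with QTMAN KO higher by a gap of 1.481 times. Row 51345, of 189 codons, had a gap of 1.62 times with QTGAL KO higher and missed the level, with 4.94 CPM in its lower QTGAL KO library.

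Many rows beside a member lay on the same side, and some differed more than the member itself, such as row 128136 with a log2 difference of 0.93 beside row 128140 with 0.67. Within 20 rows of the 16 groups higher in QTGAL KO there were 110 other transcripts at 5 CPM in both libraries of a genotype, and in 63 of them, 57.3%, every QTGAL KO library was above every QTMAN KO library. That was so in 24.5% of all 25105 transcripts. Beside the 10 groups higher in QTMAN KO, 46 of 77, 59.7%, had every QTMAN KO library above every QTGAL KO library, against 13.8% of all. Neighbouring rows may share footprints with the members, so they are not independent of the selection.

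Around uc065cck.1, rows 89976 to 89981, of 2316 to 2648 codons, held far more footprints in total and differed by log2 differences of 0.54 to 0.60. Row 89977, of 2640 codons, stood at 180 and 241 CPM in QTGAL KO and at 122 and 155 CPM in QTMAN KO. Its libraries did not overlap, but the gap was 1.16 times. The rows nearest to the member, 89967 and 89971, of 281 and 232 codons, had log2 differences of 1.16 and 1.04, closer to the 1.36 of the member itself.

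Other neighbourhoods were uniform or mixed. All 7 rows beside row 100202, of 907 to 1118 codons, had log2 differences of 0.71 to 0.78. All 10 rows beside row 164166 ran from -0.57 to -0.43. Around row 128140 the difference ended within a few rows: row 128143 had a log2 difference of 0.66 and row 128145, of 90 codons, one of 0.06. Around row 165732 the direction turned, with row 165735 at -0.56 and row 165747, of 630 codons, at 0.58. Rows 51349 and 51373, members of opposite direction, lay 24 rows apart, and row 51369 between them had a log2 difference of -0.80.

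**Figure D3:**
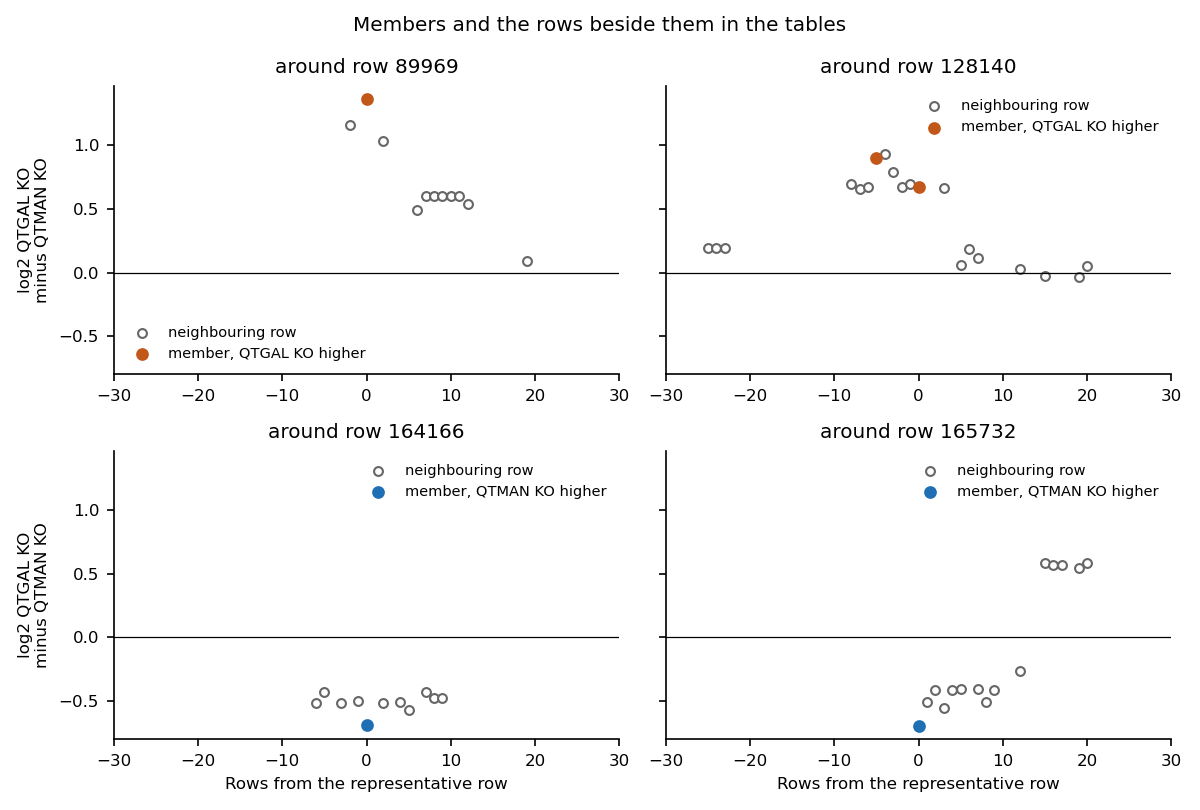
The log2 difference, QTGAL KO minus QTMAN KO, of members (filled) and of other transcripts at 5 CPM in both libraries of a genotype within 20 rows of them (open), against the distance in rows from the representative. Neighbours of rows 89969 and 164166 lie on the member's side, those of row 128140 lie at 0.19 or below at both ends, and those of row 165732 reach 0.58 in the opposite direction.

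Averaged over the libraries of a genotype, shifts of whole stretches of the tables were smaller than the members' differences, whose smallest absolute log2 was 0.66. Such averages can hide the shift of a single library, and the cause was not tested. Each library's deviation from the mean of the 5 libraries was taken in log2 of CPM plus 0.5. Its median was taken over the 200 nearest expressed rows over 20 rows away. The average of these medians in QTGAL KO minus that in QTMAN KO was between -0.02 and 0.18 for groups higher in QTGAL KO. For the 10 groups higher in QTMAN KO it was between 0.01 and 0.08, opposite in sign to each of their own differences. The highest value, 0.18, was that of row 181081. With each library centred on these nearby rows, a setting added after the data were seen, the gap of row 181081 fell from 1.53 to 1.15 times. A member row was kept by 10 of the 16 groups higher in QTGAL KO and 9 of the 10 higher in QTMAN KO.

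The QTRT1 KO library, which the selection did not use, fell in different places from group to group. In groups higher in QTGAL KO it lay above both QTGAL KO libraries in 6, within their range in 2, between the genotypes in 7 and below both QTMAN KO libraries in 1. In groups higher in QTMAN KO it lay within the range of the QTMAN KO libraries in 1, between the genotypes in 5, within the range of the QTGAL KO libraries in 2 and below these in 2. These are places of 1 library and were not tested. Some turn on small differences: row 79598 counts as above, at 6.11 CPM in QTRT1 KO against 6.08 CPM in QTGAL KO replicate 2.

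Among the widest gaps, uc057mdc.1 stood at 7.62 CPM in QTRT1 KO and uc010frx.4 at 3.23 CPM, both between the 2 other genotypes. At 8.26 CPM, uc065cck.1 was higher in QTRT1 KO than in any other library. At 13 CPM, uc063efd.1 lay within the range of the QTMAN KO libraries. Rows 54504 and 70643, at 8.05 and 9.48 CPM, were above both QTGAL KO libraries, and row 58536, at 2.73 CPM, was below both.

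QTRT1 KO was also set against the mean of QTGAL KO and QTMAN KO, as a description of the members. The 4 libraries that chose the members give that mean and the spread in the fit, and QTRT1 KO has 1 library, so the test says nothing independent about the members. The edgeR quasi-likelihood test called 0.161% of all 60966 transcripts at an adjusted p under 0.05 and 0.239% of those at the level, with 11.2% and 15.3% under an unadjusted p of 0.05. Of the 51 members it called 0, with 15 under the unadjusted p, and DESeq2 called 0 of the 15 to which it gave an adjusted p. Nothing is read from these counts of members. By value, the QTRT1 KO library was higher than the mean in 10 of the 16 representatives higher in QTGAL KO and lower in 5 of the 10 higher in QTMAN KO. The median log2 difference, QTRT1 KO minus the mean, was 0.30 in the 16 and 0.03 in the 10, against -0.002 over all transcripts fitted, most of them not at the members' level. Its median absolute value was 0.38 in the representatives and 0.17 over the transcripts at the level. These medians rest on 1 QTRT1 KO library, and no direction was tested.

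**Figure D4:**
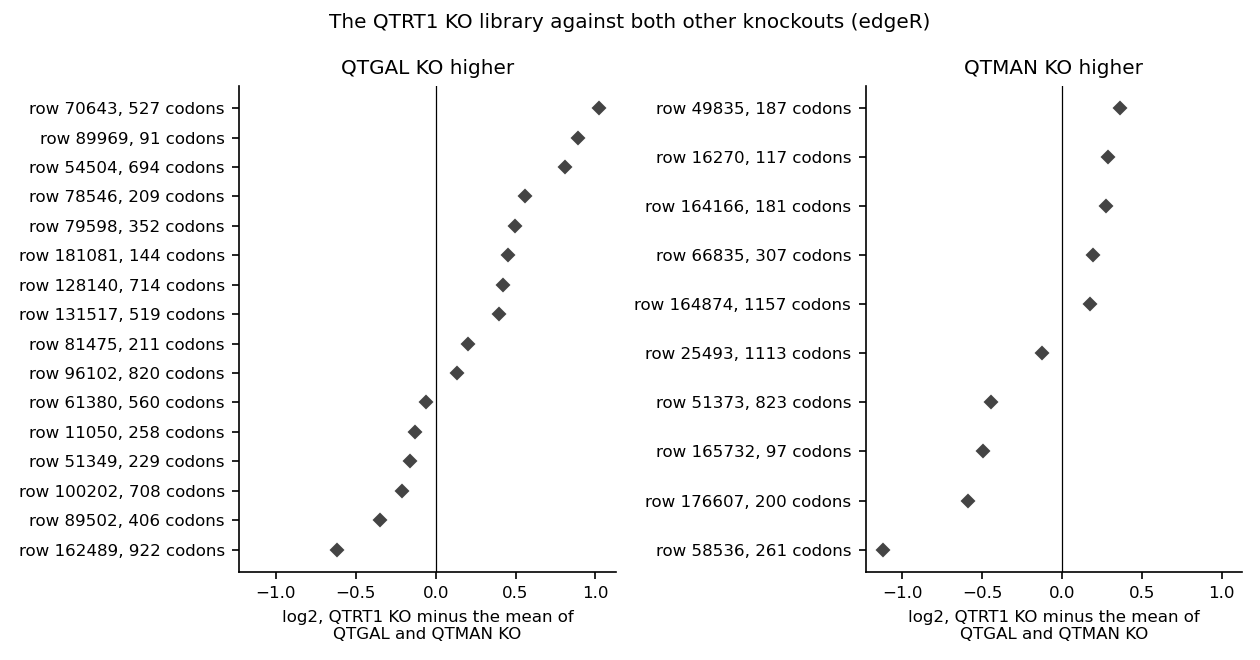
The log2 difference, QTRT1 KO minus the mean of QTGAL KO and QTMAN KO, 1 point for the representative of each group. The values run between 1.02 for row 70643 and -1.12 for row 58536, and they rest on 1 QTRT1 KO library.

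The members had few footprints, in libraries that the selection used. Their representatives had a median of 5.55 CPM over the 4 QTGAL KO and QTMAN KO libraries, against 13.7 CPM over the 25105 transcripts, and the highest of them, uc063efd.1, had 10.6 CPM. By level in the QTRT1 KO library, 1.36% of the 1028 transcripts under 5 CPM there were members (4 higher in QTGAL KO, 10 in QTMAN KO). The share was 0.411% of the 8020 from 5 to 10 CPM (30 and 3) and 0.0573% of the 6978 from 10 to 20 CPM (3 and 1). There were none among the 5590 from 20 to 50 CPM or the 3489 from 50 CPM up. These shares count rows, and rows of 1 group can have the same counts. All 25105 transcripts reached 5 CPM in libraries that the selection used, so the shares are not independent of it. The 26 representatives had between 21 and 314 counts in a library, with a median of 112.5, against 267 over the 25105 transcripts.

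The coding lengths of the representatives had a median of 329.5 codons, against 335 over the 25105 transcripts. Groups higher in QTGAL KO had a median of 462.5 codons and a range of 91 to 922, and groups higher in QTMAN KO a median of 230.5 and a range of 97 to 1157. No representative higher in QTGAL KO exceeded 1000 codons, 2 of the 10 higher in QTMAN KO did, and 11.6% of the 25105 transcripts did. With 16 and 10 groups these medians are a description and were not tested.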

How the data were processed

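For every library the authors deposited raw footprint counts by transcript, beside identifiers and lengths. Lengths run between 1 and 35992, 33.1% of them multiples of 3, and were read as codons. Per the submitters' processing notes, bcl2fastq 2.19, CASAVA and STAR 2.7.0a were used with hg38. For the annotation, counting program and strand setting, the entry is: not given in the sources used here. Per the labels' protocols, ribosomes were pelleted after RNase I treatment and short fragments were cut from a gel.

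Samples were grouped by genotype, with replicates numbered in accession order. CPM values, gaps and groups were computed here from the counts. The test was edgeR 4.0.16 in R 4.3.3 (filterByExpr, TMM, glmQLFit and glmQLFTest, 1 mean per genotype, 2 residual degrees of freedom, Benjamini-Hochberg over 60966 transcripts), checked on simulated data, with DESeq2 1.42.0 as an alternative. The members and lists were chosen with earlier results of these data known. The rule for named transcripts was the 2 widest gaps per direction among representatives. Gene lists that were planned could not be used, as no identifier has a symbol.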

Additional observations from a re-analysis of the deposited data

How the results depend on the processing

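The number of groups depended on the thresholds and on every library. Groups higher in QTGAL KO and in QTMAN KO numbered 164 and 68 with a gap of 5 parts to 4, 0 and 1 with 2 times, 74 and 38 at 2 CPM, 3 and 1 at 10 CPM, and 4 and 1 with 5 CPM in all 4 libraries. With TMM there were 10 and 12. Leaving out a library drops 1 condition of the selection: 169 and 99 groups were found without QTGAL KO replicate 1, 55 and 45 without QTGAL KO replicate 2, 66 and 27 without QTMAN KO replicate 1, and 125 and 84 without QTMAN KO replicate 2. Joining rows within 5 or 100 rows kept the numbers of groups within 1.5 times. So did local centring, with 11 and 13 groups, but the larger direction changed. With it 45.8% of the groups were higher in QTGAL KO, against 61.5% with the file sum.

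For QTRT1 KO against both, edgeR called 98 transcripts, 1161 with no filter, 9 with at least 5 CPM in 2 libraries and 167 with DESeq2, and between 95 and 1438 when 1 library was left out (95 without QTGAL KO replicate 1, 478 without QTGAL KO replicate 2, 428 without QTMAN KO replicate 1, 1438 without QTMAN KO replicate 2). Among the members, whose spread the selection used, edgeR called 3 of 51 with no filter, against 1161 of 79348 transcripts, and nothing is read from this count. With 1 library left out a genotype has 1 library, so no count of members is given there. For QTGAL KO against QTMAN KO, DESeq2 called 12 transcripts in the whole table, and edgeR 9 without QTGAL KO replicate 1, 66 without QTGAL KO replicate 2, 71 without QTMAN KO replicate 1 and 506 without QTMAN KO replicate 2. A genotype left with 1 library was assumed to vary like the others. The cause was not tested. Replicates were numbered in accession order. Library titles hold further numbers that no label explains, so whether libraries share a clone, batch or day is unknown, and no pairing was assumed. With the number as a replicate block, 464 of 60966 transcripts were called for QTRT1 KO against both, and 2 of the 51 members. For QTGAL KO against QTMAN KO, 49 of 60966 were called. Same-numbered libraries had deviations that correlated at r = 0.231 over 22801 transcripts, from 2 pairs only.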
